A study of Homo sapiens with 8 samples.

Results

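The 83 cytosolic ribosomal protein genes of this data set are the rows of a deposited expression table whose symbols are RPL or RPS followed by a number and at most 1 of the letters A, X or L, together with RPLP0, RPLP1, RPLP2 and RPSA. They are 83 of 60234 genes in the table. Of these, 49 carry symbols of the large (60S) subunit and 34 of the small (40S) subunit. The rule matched 88 rows because RPS18 is listed under 6 identifiers, and the row with the highest mean was kept for it. Ubiquitin and other fusion genes with other names, such as FAU, are ribosomal protein genes outside the rule. The samples are 8 libraries of Rh41, a human line derived from alveolar rhabdomyosarcoma, a childhood sarcoma whose cells resemble immature muscle, and all 8 carry the PAX3-FOXO1 fusion. One group holds 4 control libraries. The other holds 4 libraries labelled siG9a, in which G9a, the histone methyltransferase encoded by EHMT2, was knocked down. The series title calls the knockdown shG9a, while the sample labels say siG9a. The labels describe neither the control treatment nor the time after knockdown, and the single cell line is the only one in the comparison.

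Ribosomal proteins assemble with ribosomal RNA into the 2 subunits of the ribosome: the small subunit reads the messenger RNA, and the large subunit joins amino acids and guides the new chain through its exit tunnel. The subunits hold most of these proteins in a single copy, and their messenger RNAs are among the most abundant of growing cells. Those messenger RNAs typically begin with a cytosine followed by an uninterrupted stretch of pyrimidines, the terminal oligopyrimidine (TOP) motif, through which growth signals acting by mTORC1 adjust their translation. Ribosomal protein genes also have many processed pseudogenes, copies inserted in the genome from reverse-transcribed messenger RNA, which can be near-identical to the parent gene.

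Most members with a promoter entry had a run of pyrimidines near the annotated start. The search took a run anywhere in the window, so a TOP motif that begins at the start itself was not tested. RefSeq promoter entries on GRCh38.p14 were found for 64 of the 83 members, in 79 entries. The windows of 30 bases below cover 15 bases on each side of the annotated start, on the coding strand and read 5′ to 3′, with the longest pyrimidine run (C or T only) in capitals. They were chosen to show members that are described below as higher, lower or most abundant. For a member with several entries the one with the longest run was kept, here and in the counts and correlations over members. Runs that reach the edge of a window, as in RPL4, RPL9 and RPS29, may continue beyond it.
RPS18, chr6:33272060-33272089, plus strand: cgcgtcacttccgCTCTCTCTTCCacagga
RPL13A, chr19:49487593-49487622, plus strand: cgacaaaaCCTCCTCCTTTTCCaagcggct
RPL4, chr15:66504841-66504870, minus strand: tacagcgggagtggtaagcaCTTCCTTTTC
RPS29, chr14:49598696-49598725, minus strand: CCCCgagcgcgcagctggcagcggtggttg
RPL12, chr9:127451392-127451421, minus strand: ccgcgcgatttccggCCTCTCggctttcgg
RPL9, chr4:39458908-39458937, minus strand: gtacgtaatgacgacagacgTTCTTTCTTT
RPL27A, chr11:8682777-8682806, plus strand: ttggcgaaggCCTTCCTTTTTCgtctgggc
RPS27L, chr15:63157463-63157492, minus strand: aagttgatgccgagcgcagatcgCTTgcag
A run of at least 7 pyrimidines was present in the window on the coding strand in 60 of 79 member entries (75.9%), against 20.2% of all 35116 entries of the table. On the other strand it was present in 7.59% of member entries and 17.4% of all entries. The sequence CCGGAA, the core that ETS factors recognise, was found on either strand of the 300-base promoter in 53.2% of member entries and 17.2% of all entries, and TATAAA in 7.59% and 11.5%. The longest run in a window was under 7 for 10 members, among them RPS29 (4 bases), RPL12 (6 bases) and RPS27L (3 bases). Members with long and short runs were found at both ends of the response: RPS18 and RPL9, with runs of 11 and 10 bases, differed in opposite directions below, and RPS29 and RPL12 did so with short ones. Across the 63 tested members with an entry, the run length and the log2 difference between the groups had a Pearson r of 0.11 and a Spearman rho of 0.0902, given as a description.

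QuantSeq makes reads from the 3′ ends of polyadenylated RNA, so a value counts transcripts' ends and is not divided by gene length. The table gives CPM, that is read counts scaled to the same total in every library, from which whole reads were recovered: 1458825 to 1938665 per library, so that 1 read is worth 0.516 to 0.685 CPM. EHMT2, the targeted gene, stood at 57.6, 68.1, 87.3 and 88.3 CPM in control replicates 1 to 4 and at 19.6, 35.1, 33.1 and 58.5 CPM in siG9a replicates 1 to 4, lower in each of the 4 same-numbered pairs. The highest siG9a library was just above the lowest control library. The log2 difference was -1.10 ± 0.31 (SE), with an adjusted p of 0.191 in limma and 0.000472 when the replicate number was a block, and the exact two-sided permutation p over the 8 libraries was 0.0571 (the smallest possible is 0.0286). The replicate 3 libraries of both groups stood apart. The summed CPM of 10 skeletal muscle and rhabdomyosarcoma markers, all detected, was 352 in control replicate 3 and 347 in siG9a replicate 3, against 1960.2 to 2188 and 1151 to 1669 in the others. The summed CPM of 6 neural markers, 4 of them with a mean of at least 1 CPM, was 9615 and 8935 there. Replicate 1 stood apart on this sum too, at the low end, with 184 in the control and 222 in siG9a. Replicates 2 and 4 had 1818 and 2046 in the controls and 2953 and 1909 in siG9a. For some genes results are therefore also given without a replicate 3 library, and counts of calls are given without each replicate number.

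Ribosomal protein genes took close to the same share of the transcriptome in both groups. In replicates 1 to 4 of the controls they took 14.4, 14.6, 13.6 and 11.6% of all CPM, and in the siG9a libraries of those numbers 13.4, 13.7, 13.5 and 13.9%. Control replicate 4 was the lowest of the 8 libraries, control replicate 3 lay within the siG9a range and control replicates 1 and 2 above it, and the siG9a libraries differed little from each other. The means were 13.6 ± 1.35% and 13.6 ± 0.219% (SD, n = 4 each), a difference of 0.0538 percentage points. By replicate number the differences were -1.04, -0.904, -0.0629 and 2.22 points, so that siG9a was higher in 1 of 4 pairs, and without control replicate 4 the difference of the means was -0.585 points. The 95% Wilson interval of a library's share was at most 0.0570 points to either side, which covers counting error only, so the spread between libraries was wider than counting error.

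**Figure D1:**
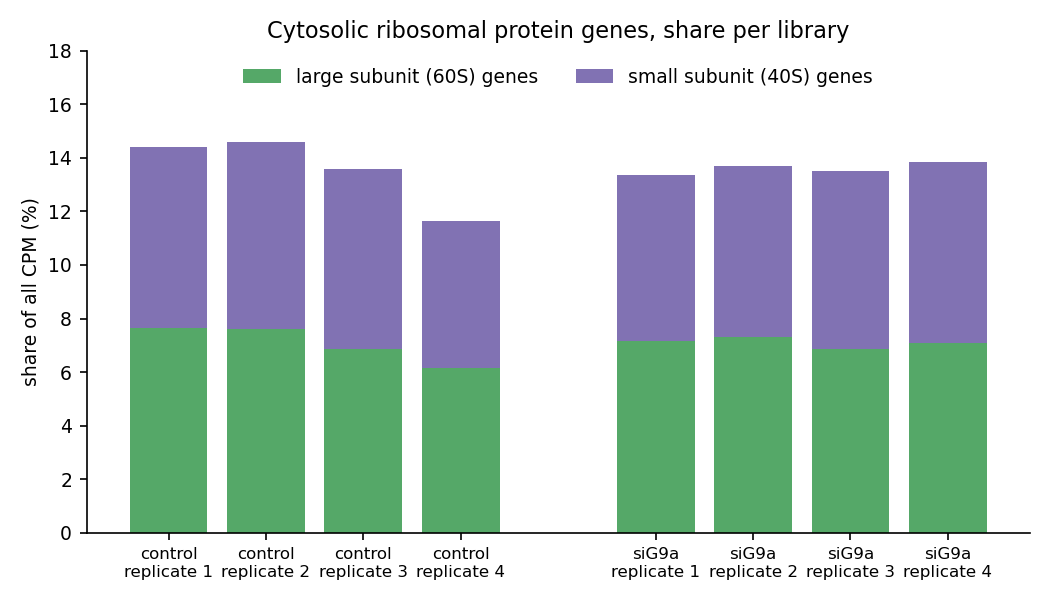
Share of all CPM (vertical axis, %) taken by the cytosolic ribosomal protein genes in each of the 8 libraries, stacked by subunit. The bars of the siG9a libraries end between 13.4 and 13.9%, while the control bars end between 11.6 and 14.6%, with control replicate 4 lowest.

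Both subunits showed this. Genes of the large subunit took 7.06 ± 0.704% of CPM in the controls and 7.11 ± 0.183% in siG9a, and genes of the small subunit 6.49 ± 0.680% and 6.49 ± 0.261% (SD, n = 4 each). The ratio of small to large subunit CPM was 0.885, 0.922, 0.975 and 0.892 in the controls and 0.861, 0.874, 0.966 and 0.954 in siG9a. Its highest value in each group was that of replicate 3, and the groups overlapped. Genes of the mitochondrial genome took 6.01 ± 2.16% of CPM in the controls and 9.21 ± 4.02% in siG9a, higher in 4 of 4 pairs. Over the remaining CPM the members' share was 14.4 ± 1.65% and 15.0 ± 0.543%, higher in 2 of 4 pairs. In bulk RNA, fewer cells with a transcript and less of it per cell cannot be told apart.

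Gene by gene, the differences had both signs. Of the 83, 78 reached a mean of 1 CPM and were tested. Of the others, RPL10L was listed at 0 in every library, and RPL3L and RPS10L stayed below 1 CPM. Among the tested members 40 had a positive and 38 a negative log2 difference (siG9a minus control, on the log2(CPM + 1) scale), with a median of 0.04, against 0.01 over all 15092 genes tested. Limma without a block called no member at an adjusted p under 0.05 and no gene at all (0% of 15092), while 10 members, or 12.8%, had an unadjusted p under 0.05, against 12.5% of all genes. Of these, 7 were positive (all genes 6.08%) and 3 negative (all genes 6.38%). No member was called by edgeR's quasi-likelihood test (0% of all genes) or by DESeq2 (1.93% of all genes) on the recovered reads without a block. These 78 are the members that passed a minimum on their mean over all libraries.

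With the replicate number as a block, limma called 13 of 78 members (16.7%), against 11.4% of all genes. RPS18, RPS27, RPS15A, RPL4, RPL13A, RPS29, RPL22, RPS21, RPL34 and RPL30 were higher in siG9a (12.8% of members, 4.86% of all genes), and 3 members, RPL9 and RPL12 among them, were lower (3.85% of members, 6.52% of all genes). The blocked edgeR fit called 11 of these 13 (all genes 11.3%), without RPL34 and RPL30, and blocked DESeq2 called 7 of them and RPL8 (all genes 6.20%), without RPS18, RPS27, RPL22, RPL34, RPL30 and RPL9. The call count depended on single pairs: 7 members were called without replicate 1, 3 without replicate 2, 7 without replicate 3 and 8 without replicate 4, with 6.30, 4.43, 7.14 and 9.23% of all genes. RPS18 and RPS15A were called in each of these 4 fits, RPL4 and RPL13A in 3, RPS27 in 2, RPS29, RPL30, RPL9 and RPL12 in 1, and RPL22, RPS21 and RPL34 in none. All 13 kept their direction under the other scalings tried, and RPS21 and RPL34 kept their call in 2 of 4 scalings with the block and RPL30 and RPL12 in 3. In the GENCODE annotation 30 of the 82 members found there have exons that overlap another gene on the opposite strand. Of those called, RPS18, RPL4, RPS29, RPL22, RPL30 and RPL9 are among them. Exons of 35 members overlap another gene on the same strand, and of those called RPS15A, RPL4, RPL13A, RPS29 and RPL22 do so. How reads in such overlaps were counted is not given in the sources used here.

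**Figure D2:**
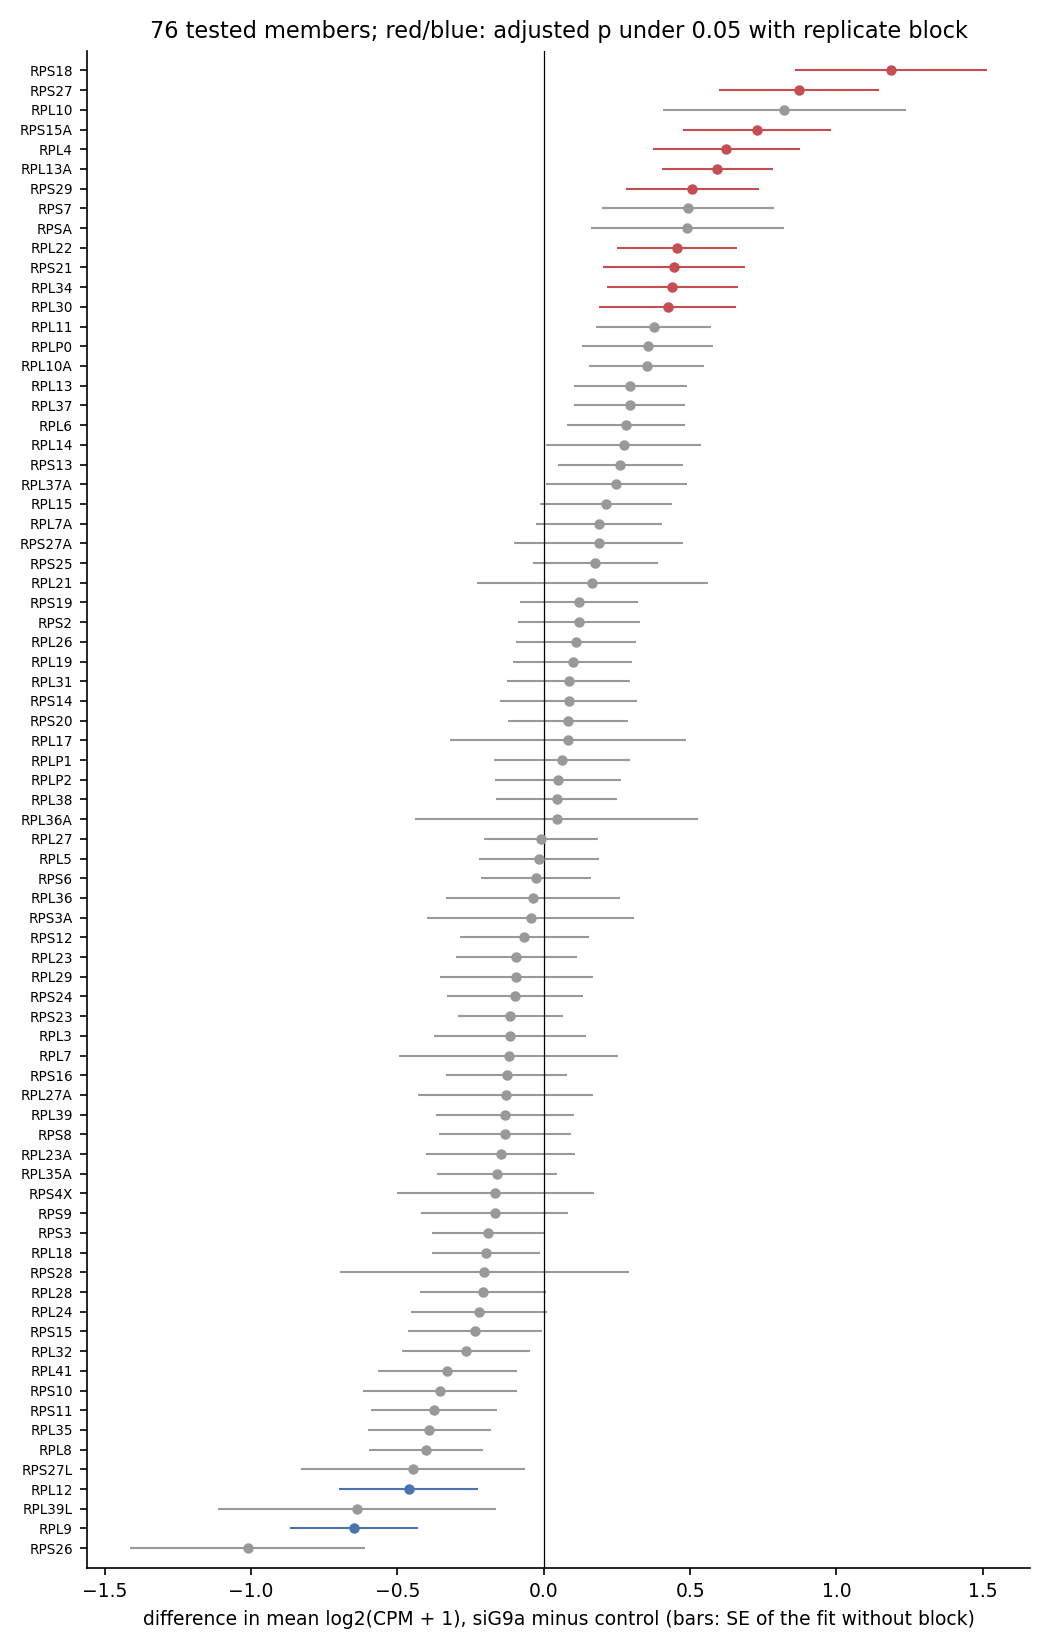
Difference in mean log2(CPM + 1) between siG9a and control libraries (horizontal axis) for 76 of the 78 tested members, ordered by size, with bars of 1 SE from the limma fit without a block. The points run from -1.01 (RPS26) to 1.19 (RPS18), the median over all 78 was 0.04, and the 12 in colour passed an adjusted p under 0.05 in the blocked fit (red, higher; blue, lower).

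In 9 members the groups did not overlap, where 7.32% of all genes had no overlap. In 4 members (RPS18, RPS27, RPL13A and RPL11) every siG9a library was above every control, which is 5.13% of the tested members against 3.88% of all genes. In 5 members (RPL18, RPL35, RPL8, RPL9 and RPS26) every siG9a library was below every control, 6.41% against 3.45%. By replicate number, 36 members had the same direction in 4 of 4 pairs, as did 30.2% of all genes, and 21 of them were higher (26.9%, all genes 14.9%) and 15 lower (19.2%, all genes 15.3%). Of the tested members 3, RPS18 and RPS26 among them, differed at least 2-fold on this scale, 3.85% against 7.16% of all genes.

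Among small subunit genes, RPS18 showed the widest difference of those called. RPS18 encodes a protein of the 40S head at the interface with the large subunit. It stood at 212, 125, 253 and 75.3 CPM in control replicates 1 to 4 and at 333, 281, 375 and 395 CPM in siG9a replicates 1 to 4. Every siG9a library was above every control, and the controls spread more widely, with replicates 4 and 2 lowest. The log2 difference was 1.19 ± 0.33 (SE), with a limma adjusted p of 0.186, and 0.000329 with the block. Without control replicate 3 it was called without a block as well (log2 1.44, adjusted p = 0.0285), and without replicate 3 of both groups (log2 1.39, adjusted p = 0.0181). Blocked DESeq2 gave an adjusted p of 0.0648. In the GENCODE annotation its exons overlap those of VPS52 on the opposite strand, and the strand setting of the counting is not given in the sources used here, so reads of the 2 genes may not be separated.

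RPS27 encodes a zinc-finger protein of the 40S subunit and is one of the genes mutated in Diamond-Blackfan anaemia, an inherited failure of red cell production. Its values were 21.9, 14.6, 19.7 and 18.2 CPM in the controls and 46.4, 36.9, 24.0 and 34.4 CPM in siG9a. The groups did not overlap, and siG9a replicate 3 came closest to the controls. For RPS27 the log2 difference was 0.87 ± 0.27 (limma adjusted p = 0.230, 0.0150 with the block). RPS15A, which binds the central part of 18S ribosomal RNA, read 339, 204, 293 and 160.4 CPM in the controls and 499, 327, 369 and 410.1 CPM in siG9a. Each siG9a library was above its same-numbered control, but the groups overlapped because control replicate 1 exceeded siG9a replicate 2. The log2 difference of RPS15A was 0.73 ± 0.25 (limma adjusted p = 0.273, 0.00274 with the block).

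RPS29 and RPS21 are far more abundant 40S genes that also were higher with the block. RPS29, a small zinc-binding protein of the head that is also a Diamond-Blackfan anaemia gene, was at 2932, 1966, 2286 and 2013 CPM in the controls and 4157, 3034, 2752 and 3116 CPM in siG9a. In both groups replicate 1 was the highest, so the groups overlapped while all 4 pairs went up. Its log2 difference was 0.51 ± 0.23, with a limma adjusted p of 0.388, and 0.0236 with the block. RPS21 was at 2504, 1985, 1877 and 1510.0 CPM and 3750.0, 2414, 2214 and 2418 CPM, with a log2 difference of 0.45 ± 0.24 and an adjusted p of 0.491, and 0.0471 with the block. For RPS21 too the replicate 1 libraries were the highest of their groups. With the rows of its pseudogenes added, RPS21 was no longer called (blocked adjusted p = 0.0512).

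RPS26, at the messenger RNA exit and also a Diamond-Blackfan anaemia gene, was counted at 12.3, 15.2, 9.22 and 7.79 CPM in the controls and 4.13, 7.26, 7.42 and 2.29 CPM in siG9a. Its groups did not overlap, but these values correspond to few reads, and the log2 difference of -1.01 ± 0.40 did not pass (limma adjusted p = 0.337, 0.0583 with the block). With a GC correction the blocked fit called RPS26 as lower (limma adjusted p = 0.0416).

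In the large subunit, RPL4 and RPL13A were the clearest of the members called as higher. RPL4 reaches into the wall of the peptide exit tunnel. Its values were 437, 334, 485 and 230.0 CPM in the controls and 703, 445, 549 and 535 CPM in siG9a. All pairs went up, by the most in replicate 4, whose control was the lowest library, and the groups overlapped. RPL4 had a log2 difference of 0.62 ± 0.25 (limma adjusted p = 0.347, 0.00900 with the block). RPL13A, which can also leave the ribosome and act in a complex that silences inflammatory messenger RNAs, was at 351, 279.5, 315 and 298 CPM in the controls and 579, 441, 481 and 390.0 CPM in siG9a. The groups did not overlap, and siG9a replicate 1 was the highest library. The log2 difference of RPL13A was 0.59 ± 0.19 (limma adjusted p = 0.239, 0.00511 with the block), but the rows of its pseudogenes went the other way, as described below.

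Like RPL4 and RPL13A, the genes RPL22, RPL34 and RPL30 were called only with the block, and their differences were smaller. RPL22, an RNA-binding protein near the tunnel exit that is often mutated in cancers, read 238, 194, 167 and 184 CPM in the controls and 342, 215, 259.8 and 264 CPM in siG9a. RPL34 read 1212, 792, 1206 and 771 CPM and 1522, 1116, 1285 and 1384 CPM. RPL30, whose protein also binds the selenocysteine insertion element, read 673, 492, 501 and 471 CPM and 1094, 604, 629 and 609 CPM. In each of the 3 genes all 4 pairs were higher in siG9a, the groups overlapped, and replicate 1 was the highest library of both groups. The log2 differences were 0.46 ± 0.20, 0.44 ± 0.22 and 0.42 ± 0.23, where the blocked limma fit gave adjusted p-values of 0.0385, 0.0496 and 0.0440, against 0.388, 0.450 and 0.501 without it.

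RPL9 and RPL12 were the large subunit genes called as lower. RPL9 encodes a protein near the factor-binding site, where elongation factors dock. It stood at 63.8, 66.2, 65.2 and 85.2 CPM in the controls and 48.0, 44.2, 51.4 and 34.4 CPM in siG9a, with control replicate 4 the highest and siG9a replicate 4 the lowest library and no overlap. Its log2 difference was -0.65 ± 0.22 (limma adjusted p = 0.262, 0.0260 with the block), and its exons overlap LIAS on the opposite strand. RPL12, part of the base of the ribosomal stalk, stood at 1074, 1057, 700.4 and 1034 CPM and 939, 744, 505 and 646 CPM. In both groups replicate 3 was the lowest and all 4 pairs went down, so that only control replicate 3 lay within the siG9a range. The log2 difference of RPL12 was -0.46 ± 0.24 (limma adjusted p = 0.452, 0.0283 with the block).

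RPL8, RPL35 and RPL18 had lower values in every siG9a library than in any control, without passing either fit. RPL8, which lies beside the peptidyl transferase centre, was at 2529.8 ± 299.9 CPM in the controls and 1908 ± 145 CPM in siG9a (SD, n = 4; log2 -0.40, limma adjusted p = 0.430, 0.0646 with the block). RPL35, at the tunnel exit, was at 3592 ± 281 and 2756 ± 405 CPM (log2 -0.39, 0.0845 with the block). RPL18 was at 2114 ± 97.1 and 1843 ± 76.2 CPM (log2 -0.20, 0.404 with the block). Blocked DESeq2 called RPL8.

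**Figure D3:**
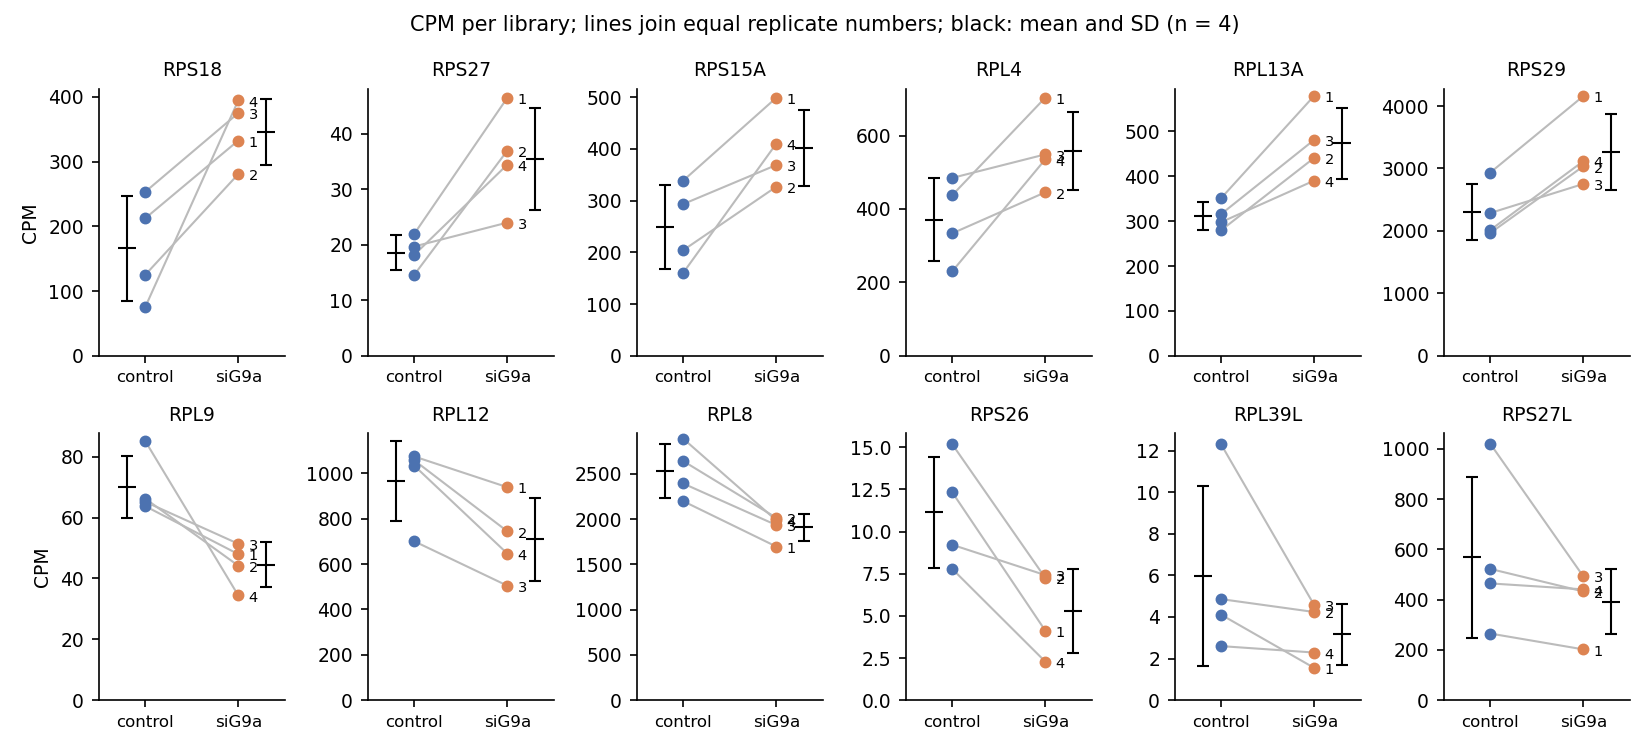
CPM (vertical axis, from 0) of 12 members in the control and siG9a libraries, with lines joining equal replicate numbers and black bars for the mean and SD of 4 libraries. In the upper row every line goes up and RPS18 runs from 75.3 to 253 CPM in the controls and from 281 to 395 CPM in siG9a, and in the lower row every line goes down, for RPS27L from 1021 to 493 CPM in replicate 3.

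The most abundant members did not differ beyond their spread. RPL27A, the member with the highest mean and 12.2% of all member CPM, read 18978, 21353, 15432 and 13409 CPM in the controls and 10523, 19606, 15624 and 18116 CPM in siG9a. RPS27A, which encodes a fusion of ubiquitin and a head protein, read 12476, 13403, 11886 and 7293 CPM and 9469, 12529, 13722 and 14952 CPM. RPS24, a Diamond-Blackfan anaemia gene, read 7735, 6881, 5828 and 6578 CPM and 6990.4, 6141, 5149 and 7022 CPM. The extreme libraries were siG9a replicate 1 for RPL27A, at the low end, and control replicate 4 for RPS27A, also at the low end. The log2 differences were -0.13 ± 0.30, 0.19 ± 0.29 and -0.10 ± 0.23, with 95% intervals of -0.78 to 0.52, -0.44 to 0.81 and -0.60 to 0.40. Exons of RPL27A overlap ST5 and TRIM66, and those of RPS27A overlap CLHC1, on the opposite strand. Without these 2 genes the members took 10.7 ± 0.773% of CPM in the controls and 10.7 ± 0.412% in siG9a.

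The P-stalk genes RPLP0, RPLP1 and RPLP2 encode the acidic arm that recruits elongation factors. RPLP0 was at 3485, 3373, 2787 and 2136 CPM in the controls and 3941, 3749.5, 3415 and 3708 CPM in siG9a, higher in 4 of 4 pairs and most so in replicate 4. Its log2 difference was 0.35 ± 0.22 (limma adjusted p = 0.559, 0.145 with the block). RPLP1 and RPLP2 had differences of 0.06 ± 0.23 and 0.05 ± 0.22, and their groups overlapped widely, at 3193 to 4667 and 3489 to 4935 CPM for RPLP1 and 3146 to 4409.6 and 3584 to 4495 CPM for RPLP2. The sign turned for both when control replicate 4 or siG9a replicate 1 was left out, and for RPLP1 also without control replicate 3.

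RPL5 and RPL11 join 5S ribosomal RNA in a particle that, outside the ribosome, binds MDM2 and stabilises p53, and RPL23 can bind MDM2 too. RPL11 was at 1381, 1286, 1311 and 1435 CPM in the controls and 2222, 1664, 1506 and 1697 CPM in siG9a. Its groups did not overlap, the controls lay within a narrow range and siG9a replicate 1 was the highest. The log2 difference of 0.37 ± 0.20 did not pass (limma adjusted p = 0.468, 0.0881 with the block), but on CPM without mitochondrial genes the blocked fit called RPL11 (adjusted p = 0.0427). RPL5 was at 3339.6 ± 316 and 3302 ± 313 CPM (SD, n = 4), with a log2 difference of -0.02 ± 0.20 (95% interval -0.46 to 0.43). RPL23 was at 2159 ± 352 and 2016 ± 257 CPM, with -0.09 ± 0.21 (95% interval -0.54 to 0.36).

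RPS6, the ribosomal protein phosphorylated by S6 kinase downstream of mTORC1, was at 979.6, 849, 950.1 and 752 CPM in the controls and 952, 733, 862 and 919 CPM in siG9a, and its log2 difference was -0.03 ± 0.19 (95% interval -0.43 to 0.38). The 2 groups covered nearly the same range. RPSA, a 40S protein also known as the laminin receptor precursor, was at 48.7, 72.3, 119 and 46.7 CPM and 74.8, 74.5, 155 and 90.0 CPM. Replicate 3 was the highest library in both groups, and all 4 pairs were higher in siG9a. RPSA had a log2 difference of 0.49 ± 0.33 (limma adjusted p = 0.582, 0.0676 with the block), and the blocked fit called RPSA on CPM without mitochondrial genes (0.0384) and by quantiles (0.0479).

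The paralogs in the rule, which replace a common ribosomal protein in some tissues, were low or at 0 except RPS27L. RPL3L, the form of RPL3 made in heart and skeletal muscle, had 1 read in 1 library, control replicate 3, and RPL10L, a testis form of RPL10, had none. A count of 0 allows up to 3 reads, or 1.55 to 2.06 CPM in these libraries. RPL39L was at 4.11, 4.86, 12.3 and 2.60 CPM in the controls and 1.55, 4.24, 4.57 and 2.29 CPM in siG9a, with control replicate 3 standing high. RPS27L, a p53 target, was at 265, 523, 1021 and 465 CPM and 202, 433, 493 and 441 CPM, and control replicate 3 was again far above the rest. All 4 pairs were lower in siG9a for both, with log2 differences of -0.64 ± 0.48 and -0.45 ± 0.38 (limma adjusted p = 0.337 and 0.0568 with the block). For RPS27L the difference was -0.11 without control replicate 3 and -0.15 without siG9a replicate 1, and the blocked fit without replicate 4 called it (log2 -0.57, adjusted p = 0.0237).

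Grouped by role, the larger sets held differences of both signs, while the 3 P-stalk genes were all positive and the 2 tested paralogs both negative. Of 8 genes at the tunnel exit, 5 were positive and 3 negative (median 0.08), and the block called RPL22 as higher. Of 13 tested head genes of the 40S subunit, 6 were positive and 7 negative (median -0.07). The block called 3 of them (23.1%), RPS18 and RPS29 as higher and 1 as lower. Of 17 tested Diamond-Blackfan anaemia genes, 8 were positive and 9 negative (median -0.01), and the block called RPS27 and RPS29 as higher. Over all members the median was 0.05 for the 47 tested large subunit genes, of which the block called 5 higher and 2 lower, and -0.04 for the 31 tested small subunit genes, of which it called 5 higher and 1 lower. The comparable value over all genes was a median of 0.01 with 11.4% called.

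Several members had very low counts while their pseudogene rows were high. The table holds 897 rows named as ribosomal protein pseudogenes, of which 185 reached a mean of 1 CPM. RPL10, which joins the large subunit late near its active site, had a mean of 8.24 CPM in its own row and 284 CPM in 4 pseudogene rows, nearly all in RPL10P3. For RPL21 the means were 4.14 and 40.4 CPM. In 11 members the pseudogene rows exceeded the gene's own row. How reads that match several places were counted is not given in the sources used here, so the level of such a member is uncertain.

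The summed CPM of all 897 pseudogene rows was 7064, 6593, 7439 and 7772 in the controls and 6909.7, 6282, 6954 and 6217 in siG9a, lower in 4 of 4 pairs and by the most in replicate 4. The groups overlapped. The means were 7217 ± 507 and 6591 ± 395 CPM (SD, n = 4 each). Of the 185 rows with a mean of at least 1 CPM, 8 (4.32%) were lower in every siG9a library than in any control, against 3.45% of all genes, and 3 (1.62%) were higher, against 3.88%. The most abundant row, RPS14P3, was one of the lower ones, at 1129, 1179, 1232 and 1365 CPM in the controls and 723, 957, 1115 and 953 CPM in siG9a, while RPS14 itself was at 5408 ± 974 and 5688 ± 636 CPM (SD, n = 4).

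For some members the gene and its pseudogene rows went in opposite directions. The pseudogene rows of RPL13A summed to 364, 294, 199.8 and 425 CPM in the controls and 289, 256, 196 and 233 CPM in siG9a, while RPL13A itself was higher. Gene and pseudogenes together stood at 632 ± 104 and 716 ± 106 CPM, a log2 difference of 0.18 ± 0.20 (limma adjusted p = 0.759, 0.443 with the block), so RPL13A was not called on this sum. RPL10 was at 6.85, 4.25, 9.84 and 2.60 CPM in the controls and 15.5, 10.3, 6.85 and 9.75 CPM in siG9a in its own row, higher in 3 of 4 pairs. The groups overlapped, and the log2 difference was 0.82 ± 0.42 (limma adjusted p = 0.155 with the block). On the sums with pseudogenes the log2 differences of RPL10 and RPSA were -0.30 and -0.09, with the sign reversed. RPS18, RPS27, RPS15A, RPL4, RPS29, RPL22, RPL34 and RPL30 remained called as higher on the sums in the blocked fit, and RPL9 and RPL12 as lower.

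Of 44 tested members whose pseudogene rows summed to at least 10 CPM on average, 14 were positive with a lower pseudogene sum, 13 positive with a higher one, 10 negative with a lower one and 7 negative with a higher one. With every member's pseudogene rows added, the block called 11 of 79 members (11.4% of all genes in that fit) and the median over members was -0.03.

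**Figure D4:**
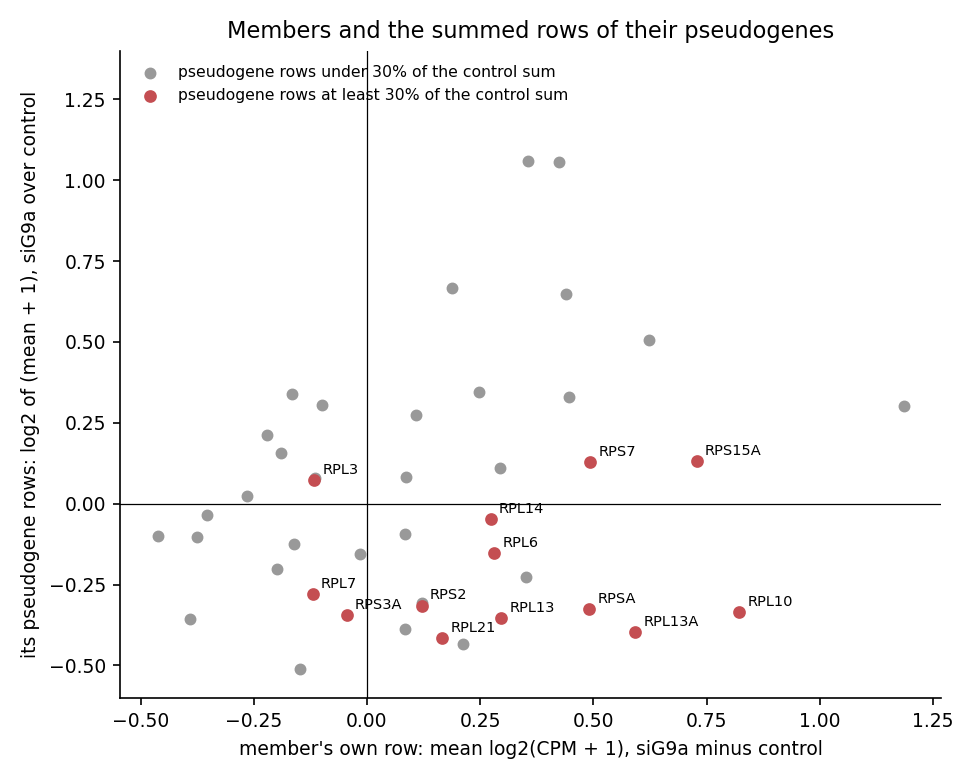
For 43 of these 44 members, the difference in mean log2(CPM + 1) of the gene's own row between siG9a and control libraries (horizontal axis) against the log2 ratio of its summed pseudogene rows (vertical axis, group means plus 1 CPM). Members whose pseudogenes hold at least 30% of the control sum are in red, and among them RPL10, RPL13A and RPSA lie at the lower right, positive for the gene and negative for the pseudogenes.

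Libraries with replicate numbers 1, 2 and 3 shifted together across the members, and those with number 4 did not. Against the mean of the other 3 libraries of its group, each library's shift over the 78 members correlated between the control and siG9a libraries of the same number at 0.681, 0.453, 0.711 and -0.122 for replicates 1 to 4, given as descriptions over members that share a library and its depth. Over all 15092 genes these correlations were 0.500, 0.104, 0.673 and 0.130. Joint shifts in replicates 1 and 3 were therefore not particular to the members. Shifts of at least 2-fold were found in 3, 1, 11 and 4 members in control replicates 1 to 4 and in 4, 0, 2 and 1 members in siG9a replicates 1 to 4. The share of all genes with such shifts is not given here, so these counts do not set the members apart. RPS28, which sits at the messenger RNA exit channel, was at 2971, 3303, 727 and 1889.5 CPM in the controls and 2254, 2216, 674 and 2279 CPM in siG9a, low in both replicate 3 libraries. RPL36A was at 63.1, 123, 319.8 and 126 CPM and 60.9, 147, 271 and 146 CPM, high in both. The groups overlapped in both genes, and the log2 differences between siG9a and control were -0.20 ± 0.49 and 0.04 ± 0.48. RPS28 and RPL36A were picked for these shifts after their values were seen. The part of the markers that set replicate 3 apart in these shifts was not tested.

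**Figure D5:**
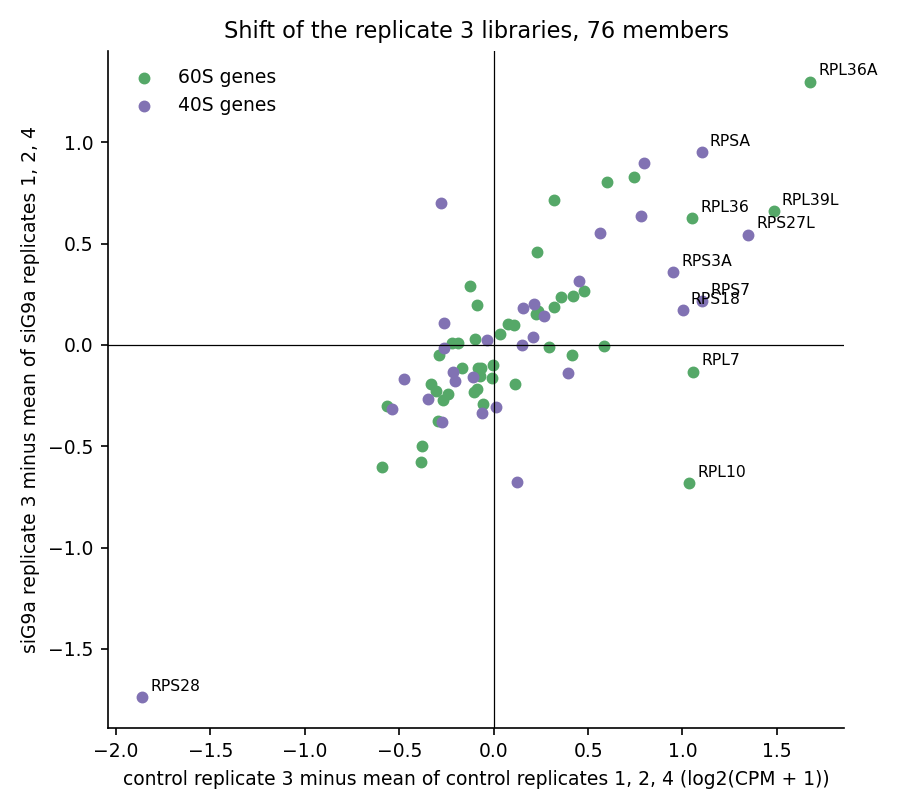
Shift of each of 76 members in the replicate 3 library against the mean of replicates 1, 2 and 4 of its group, in log2(CPM + 1), for the control library (horizontal axis) and the siG9a library (vertical axis), coloured by subunit. RPS28 lies far to the lower left at -1.86 and -1.74 and RPL36A at the upper right at 1.68 and 1.30.

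Genes with ribosomal protein names or products outside the rule differed in both directions as well. Of 7 tested, the block called 4 (57.1%, all genes 11.4%) and the fit without it none. FAU, a fusion of a ubiquitin-like protein and a 40S protein, was at 1148, 1066, 1286 and 698 CPM in the controls and 1567, 1348, 1462 and 1342 CPM in siG9a, higher in every siG9a library than in any control (log2 0.48 ± 0.22, limma adjusted p = 0.0335 with the block). RPL36AL (0.58 ± 0.23, 0.00902) was also called as higher. RPL7L1, whose name marks it as RPL7-like, was called as lower (-0.50 ± 0.42, 0.0256).

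Other genes with TOP messenger RNAs had differences of both signs. Of 21 translation factor genes and further genes known for TOP messenger RNAs, 10 were positive and 11 negative (median -0.04), and the block called 2 as lower, 9.52% against 11.4% of all genes. TPT1, which encodes translationally controlled tumour protein, was at 4227, 3839.7, 1662 and 3269 CPM in the controls and 2175, 1638, 967 and 2182 CPM in siG9a (log2 -0.89 ± 0.34, limma adjusted p = 0.319, 0.000299 with the block), lower in all pairs and lowest in both replicate 3 libraries. EEF2, the translocating elongation factor, had -0.43 ± 0.26 (0.0473 with the block), and EEF1B2 was lower in every siG9a library without passing (-0.30 ± 0.17, 0.153 with the block). Of 8 host genes of small nucleolar RNAs with such starts, 7 were positive (median 0.34), and the block called SNHG6 and ZFAS1 as higher (25.0%, all genes 11.4%). SNHG6 was at 104, 99.0, 119 and 97.6 CPM in the controls and 197, 162, 156 and 197 CPM in siG9a, without overlap (log2 0.75 ± 0.19, limma adjusted p = 0.134, 0.00192 with the block). ZFAS1 had 0.55 ± 0.30 (0.0150 with the block), and SNHG12 had 0.52 ± 0.23 without passing (0.0795).

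Factors that build ribosomes and regulators of TOP translation were mixed in sign too. Of 54 tested ribosome biogenesis genes, 24 were positive and 30 negative (median -0.08), and the block called 2 higher and 4 lower, 11.1% against 11.4% of all genes. RRN3, which loads RNA polymerase I on ribosomal DNA, had a log2 difference of 0.97 ± 0.33 (0.00835 with the block), higher in 3 of 4 pairs, and TCOF1 had 0.50 ± 0.34 (0.0224). EIF6, which keeps new large subunits from joining early, was lower in every siG9a library (-0.51 ± 0.18, 0.0183), as was PNO1 without passing (-0.44 ± 0.22, 0.171), and IMP4, FTSJ3 and PES1 were called as lower. Of 6 genes for chaperones of ribosomal proteins and the nascent chain complex, 5 were negative (median -0.24), and BTF3 alone (16.7%, all genes 11.4%) was called as lower (-0.55 ± 0.19, 0.0157). NACA and HEATR3 had -0.38 ± 0.20 and -0.48 ± 0.41 without passing. Of 12 genes of mTORC1 and its TOP regulators, 3 were called (25.0%, all genes 11.4%). TSC1, which restrains mTORC1, was called as higher (0.67 ± 0.20, 0.00543), EIF4EBP1 and MLST8 as lower (-0.62 ± 0.25, 0.0266, and -0.57 ± 0.32, 0.0173), while EIF4EBP2 had 0.47 ± 0.19 (0.0703). With the block, EIF4EBP2 was called on CPM without mitochondrial genes (limma adjusted p = 0.0438) and by quantiles (0.0465), and NACA without replicate 4 (0.0167). Without the block limma called no gene of these lists, of the 2 TOP lists or of the list outside the rule. Of all genes, 12.5% had an unadjusted p under 0.05. That p was reached by 2 of 7 genes outside the rule (28.6%), 1 of 21 translation genes (4.76%), 2 of 8 host genes (25.0%), 2 of 54 biogenesis genes (3.70%), 1 of 6 chaperone genes (16.7%) and 3 of 12 mTORC1 genes (25.0%).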

How the data were processed

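The deposited table gives, for each gene and library, CPM as the authors made it, read counts scaled to a common library total. Per the submitters' processing notes, FastQC 0.11.8, Trim Galore, STAR 2.5.0a, HTSeq 0.8.0 and edgeR 3.28 were used, with the builds GRCh38 and hg19. Their roles, the annotation, the strand setting and the treatment of multi-mapping reads are not given in the sources used here. Values were whole multiples of 1 read for 100% of entries (within 0.005 CPM), so reads were recovered: 1458825 to 1938665 per library. Within groups, the 12 possible pairs of libraries differed beyond counting error, with chi-square values of 5.90 to 28.7 per degree of freedom.

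Genes that averaged 1 CPM or more were fitted with limma 3.58.1 on log2(CPM + 1), with a trend and no block, two-sided and Benjamini-Hochberg adjusted over all 15092 genes at 0.05. On recovered reads edgeR 4.0.16 called 0 genes (1847 at an unadjusted p under 0.05) and DESeq2 1.42.0 called 292, and with the block they called 1711 and 936. Limma called 0 and 1717. Alternatives changed the pseudocount, filter, scaling, variance model, tool and libraries. Those with a GC correction, scalings with the block, whole replicate numbers left out and pseudogene rows summed were chosen after seeing the data. The titles number replicates 1 to 4 in both groups. Deviations from the group means correlated at 0.500, 0.104, 0.673 and 0.130 between same-numbered libraries (15092 genes), so the numbers were taken to pair them. This pairing was read from the same values that the blocked fits use, and the blocked p-values rest on it. Blocked values stand beside results. The series describes biological replicates, and no label says what a number shares.

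Members and lists were chosen with earlier results of these data known. The rule for named genes took the 6 members with the largest rise and the 6 with the largest fall, the 3 most abundant, the P-stalk genes, RPSA, RPL5, RPL11, RPL23, RPS6 and the paralogs, and in other lists the 3 genes with the smallest p. Other members and genes called with the block or named for a count were added after their values were seen. Some genes are not reported here. Promoters are from RefSeq, GRCh38.p14, and overlaps from GENCODE release 29. Scripts were tested on simulated data.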

Additional observations from a re-analysis of the deposited data

Results flagged for a closer look

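The groups of 4 libraries were screened for the named members, EHMT2, the members' share, the subunit ratio and the pseudogene sum. Of these 63 groups, 6 held a library whose gap to the nearest other was beyond Dixon's 95% critical value. About 1 in 20, or 3.15, would be so by chance. RPL12 was at 700.4 CPM in control replicate 3, against 1034 to 1074 CPM in the other controls. RPL9 was at 85.2 CPM in control replicate 4, against 63.8 to 66.2 CPM. RPL3L had its single read, 0.61 CPM, in control replicate 3 and none in the other controls. With the other controls at 0 any read is beyond the critical value, so this flag, counted among the 6, carries no weight. RPS21 was at 3750.0 CPM in siG9a replicate 1, against 2214 to 2418 CPM. RPL30 was high in replicate 1 of both groups, at 673 CPM against 471 to 501 CPM in the controls and at 1094 CPM against 604 to 629 CPM in siG9a.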

How the results depend on the processing

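The counts depended on the replicate number as a block. The pathway genes are genes with ribosomal protein names or products outside the rule (7 tested), translation genes (21), host genes (8) and biogenesis genes (54). They also include chaperone genes (6), mTORC1 genes (12) and mitochondrial ribosomal protein genes (75), of which the blocked limma fit called 9. Called members, called pathway genes outside the members and the EHMT2 log2 difference were, in that order, 13 members, 27 genes and -1.10 in the blocked limma fit, 11 members, 27 genes and -1.09 in edgeR and 8 members, 19 genes and -1.12 in DESeq2 with the block. Under other scalings with the block they were 10 members, 25 genes and -1.11 by median ratios, 14 members, 25 genes and -1.07 by quantiles, 15 members, 30 genes and -1.05 without mitochondrial genes, and 11 members, 27 genes and -1.10 over other genes only. With a GC correction and the block they were 11 members, 19 genes and -1.03, and with pseudogene rows summed 11 members, 28 genes and -1.10. Of all genes, the blocked limma, edgeR and DESeq2 fits called 11.4, 11.3 and 6.20%. The scalings with the block called 11.2, 11.2, 11.9 and 11.2% of all genes, in the order above. The GC correction and the pseudogene sums each called 11.4% of all genes with the block. Leaving out 1 pair from the blocked fit gave 7 members, 12 genes and -0.96 without replicate 1, 3 members, 10 genes and -1.16 without replicate 2, 7 members, 17 genes and -1.01 without replicate 3 and 8 members, 26 genes and -1.27 without replicate 4. Those fits called 6.30, 4.43, 7.14 and 9.23% of all genes. Without the block, limma and edgeR called no member and no pathway gene, DESeq2 called 3 pathway genes, leaving out 1 library gave 0 to 1 of each (1 of each without control replicate 3), and leaving out replicate 3 of both groups gave 1 member and 4 pathway genes. Of all genes, DESeq2 called 1.93%, and limma 1.99% without control replicate 3 and 2.74% without replicate 3 of both groups. All genes called were 1717 with the block, 668 to 1393 with a pair left out, 300 without control replicate 3 and 18 with no filter. The scalings moved the split of blocked calls over all genes from 733 higher and 984 lower to 691 and 1001 by median ratios, 799 and 889 by quantiles, and 907 and 887 without mitochondrial genes.

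Signs were followed across the fits for members named by the rule or called with the block, and not for the other members. Among those followed and reported here, signs turned only where the difference was small or pseudogene reads were many. On sums with pseudogene rows, with and without the block, RPL10 was at -0.304 and RPSA at -0.0923. Over fits that leave out 1 library, RPL27A ranged from -0.245 to 0.0571, RPS27A from -0.00944 to 0.320, RPLP1 from -0.0437 to 0.162, RPLP2 from -0.0406 to 0.122, RPL5 from -0.0582 to 0.0429, RPL23 from -0.173 to 0.0126 and RPS6 from -0.101 to 0.0519. Without replicate 1 of both groups RPL27A was at 0.11, and without replicate 4 of both RPS27A was at -0.0959 and RPL5 at 0.0292. RPL5 was at 0.00114 without replicate 3 of both, and RPS6 at 0.0119, and at 0.0358 without replicate 2 of both. Quantile normalization put RPS27A at -0.126, RPL5 at 0.00275 and RPS6 at 0.0908, and CPM without mitochondrial genes put RPL5 at 0.0344 and RPS6 at 0.0247. Apart from the ranges over single libraries, these values were the same with the block. The cause of these turns was not tested. The block changed the call of no named member other than those for which the report gives it. The subunit ratio and the pseudogene sum moved by less than either group's SD under every alternative tried. The difference in the members' share, 0.0538 points, was 0.565 points without mitochondrial genes and ranged from -0.585 to 0.403 points without 1 library, within the control SD but beyond the siG9a SD. Members under about 10 CPM rest on few reads, which limits what can be said of RPL10, RPS26 and RPL39L.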

Other observations

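Mitochondrial ribosomal protein genes, which serve the separate ribosome of mitochondria, had differences of both signs. Of 75 tested, 49 were positive and 26 negative (median log2 difference 0.18, against 0.04 for the cytosolic members and 0.01 for all genes). The blocked limma fit called 7 higher and 2 lower, 12.0% against 11.4% of all genes. Without the block limma called none, with 11 at an unadjusted p under 0.05, or 14.7% against 12.5% of all genes. MRPS9 was at 39.8, 43.1, 46.7 and 71.1 CPM in the controls and 118, 105, 84.5 and 108 CPM in siG9a, without overlap (log2 1.06 ± 0.23, limma adjusted p = 0.117, 0.000353 with the block). MRPL45 was at 37.7, 26.1, 32.0 and 25.4 and 69.1, 48.4, 65.1 and 71.1 CPM, also without overlap (1.04 ± 0.23, limma adjusted p = 0.000731 with the block). MRPL33 had 0.86 ± 0.24 (limma adjusted p = 0.00251 with the block), while MRPL23 and MRPL28 were lower in every siG9a library, at -0.86 ± 0.29 and -0.62 ± 0.23. Their summed share of CPM was 0.598 ± 0.107% in the controls and 0.616 ± 0.104% in siG9a (SD, n = 4 each), higher in 4 of 4 pairs by less than the spread within a group.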
